A study of Mus musculus with 168 samples.

Results

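Neuropeptide precursors are the proteins from which neurons cut their peptide transmitters. The levels of 35 precursor genes were followed by population, age and genotype in laser-captured neurons of mice with spinal muscular atrophy (SMA). The genes were taken by name from a table of 39410 rows, and all 35 were found there. They comprise peptide precursors from Cartpt to Pnoc and 5 proteins of the granin family and its relatives (Chga, Chgb, Scg2, Scg3 and Vgf), which fill the same secretory granules.

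A neuropeptide is made as part of a longer precursor, sorted into a dense-core vesicle, cut out by convertases and often amidated before release. It acts on G protein-coupled receptors, more slowly and over longer distances than acetylcholine, the main transmitter of motor neurons. Motor neurons of the brainstem and spinal cord are known to carry several such peptides, among them the calcitonin gene-related peptides and galanin. The orexin (Hcrt), melanin-concentrating hormone (Pmch), vasopressin (Avp), oxytocin (Oxt), Pomc and Agrp precursors are made mainly in the hypothalamus, so their levels were read here as a check for foreign reads in single libraries.

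The SMA mice were of the delta7 line (Smn-/-/SMN2+/+/SMN∆7+/+). Their controls, born in the same litters, kept both copies of the mouse gene (Smn+/+/SMN2+/+/SMN∆7+/+), so both genotypes carry the same human transgenes. The SMA mice lack the mouse gene Smn1. Neurons came from 6 populations: motor neurons of the lumbar spinal cord and of the hypoglossal, vagus, facial and ocular motor nuclei, and neurons of the red nucleus, which are not motor neurons. Tissue was taken at postnatal days 2, 5 and 10, and about 150 neurons were pooled in each tube, so fewer cells of a kind in a tube and less RNA per cell cannot be told apart. The 168 libraries came from 34 mice, 15 controls and 19 SMA, in 36 groups of 3 to 7 mice. The mouse was the replicate, and 1 mouse usually gave several populations. Per the labels, some ocular libraries hold the oculomotor or the trochlear nucleus alone, and lumbar control libraries at day 5 include reads of an earlier deposit.

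Values are RPKM, read counts scaled to gene length and library depth. The depth, recovered from the steps between low values, had a median of 5.89 M (mega) reads, a lowest value of 0.342 M and a highest of 16.3 M. Smn1 checked the genotype labels: it was at 4.32 to 63.3 RPKM in 72 control samples, and 70 of 88 SMA samples were listed at 0, with a highest value of 4.24. Motor neuron markers (4 genes, summed) had medians of 835 to 1604 RPKM in the motor populations and 35.3 in the red nucleus. Chat, the enzyme that makes acetylcholine, was at 0 in 7 of 11 red nucleus samples, and Slc17a6, a glutamate transporter of vesicles, was at a median of 185.2 RPKM there and at 4.45 to 16.2 elsewhere.

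The hypothalamic precursors set 8 libraries apart before any comparison. Hcrt, Pmch, Avp and Oxt were all high in the libraries LCM202 to LCM209, numbered so in the labels, which are the lumbar, hypoglossal, vagus and facial libraries of the day 2 control mice 240 and 244. Hcrt was at 69.2 to 253 RPKM in these 8 libraries and at most 29.1 in the other 160. Pmch was at 62.9 to 256.5 against at most 8.04, with 139 of the other 160 libraries at 0. Avp was at 52.1 to 168.7 against at most 5.35, with 150 of 160 at 0. Oxt was at 69.5 to 232.8 against at most 23.4, with 143 of 160 at 0. For each of the 4 genes the 8 libraries lay above all the others without overlap. Among all 39410 rows, these 4 genes were the only ones whose lowest value in the 8 libraries exceeded the highest value in the other 160.

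**Figure D1:**
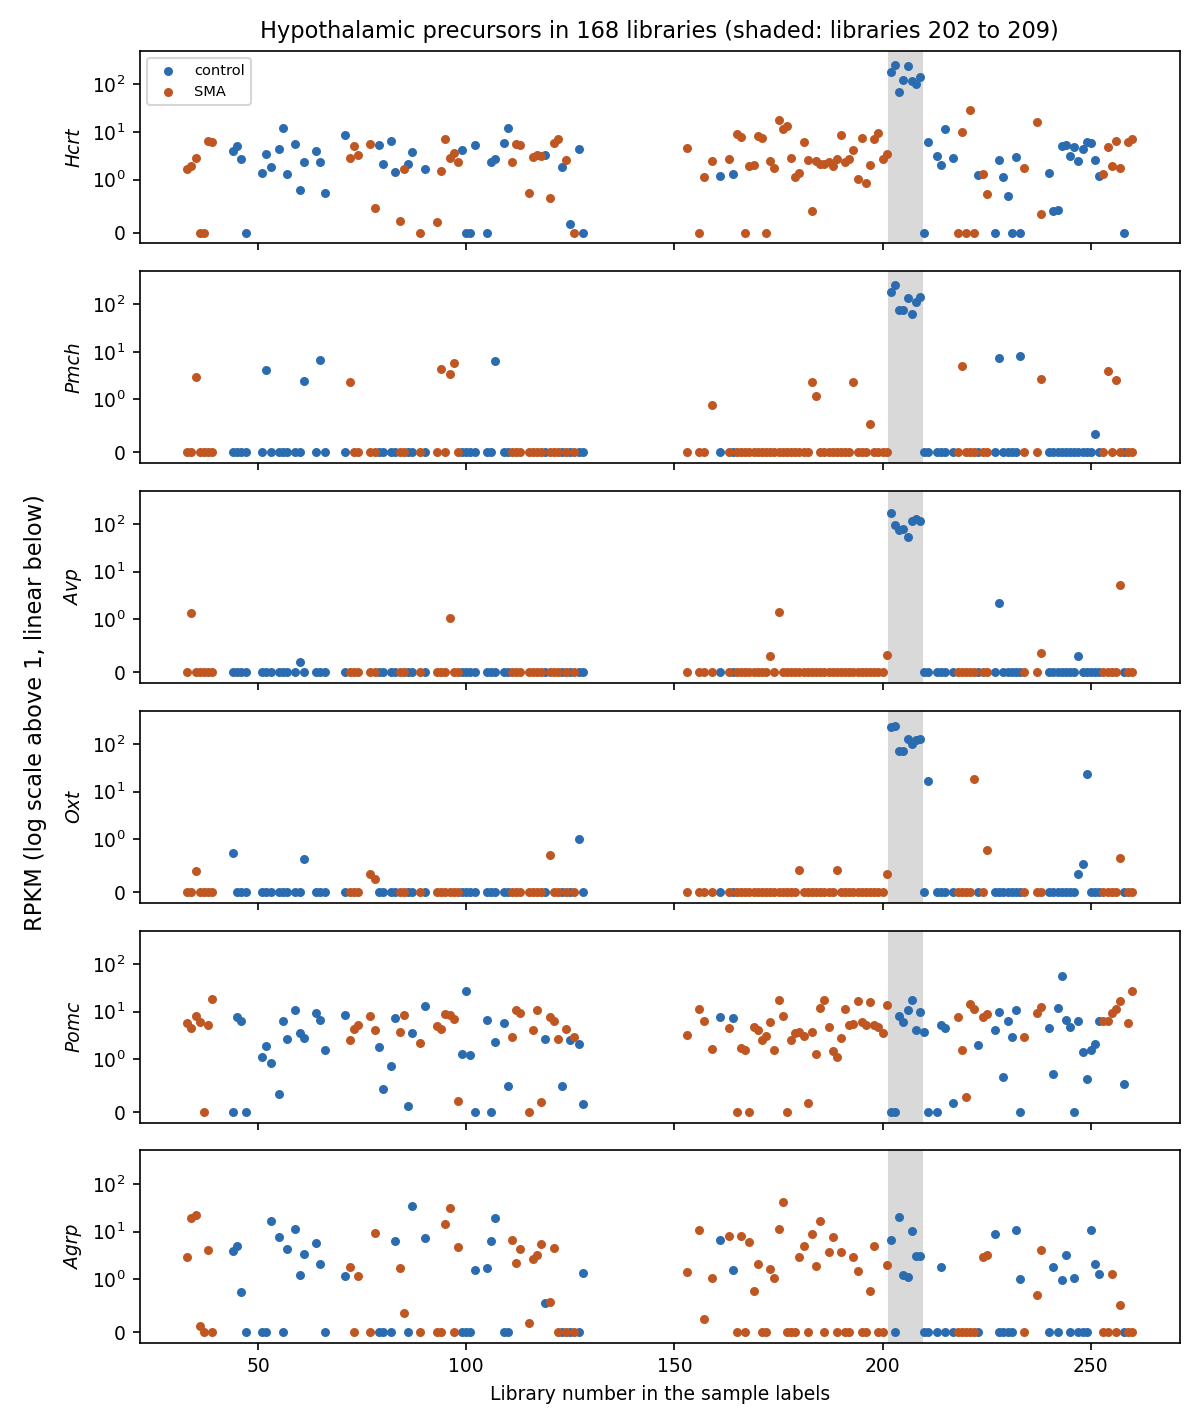
RPKM of 6 hypothalamic precursors (rows of panels) in each of 168 libraries, plotted by library number, with a log scale above 1 and a linear scale below; points are libraries, coloured by genotype. The shaded libraries LCM202 to LCM209 are all controls and hold Hcrt, Pmch, Avp and Oxt at 52.1 to 256.5 RPKM, while Pomc and Agrp there lie among the other libraries.

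Libraries LCM210 and LCM211, the ocular and red nucleus libraries of mouse 244, did not share this: Hcrt was at 0 and 6.10 RPKM in them, Pmch and Avp were at 0 in both, and Oxt was at 0 and 16.8. Pomc, the precursor of melanocortins and beta-endorphin, had a median of 7.04 RPKM in the 8 libraries and 4.22 in the others. Agrp, the melanocortin antagonist, had medians of 3.00 and 0.728. Other genes of the hypothalamus did not come with the 4 peptides. Of 11 further hypothalamic genes, 3 were at 0 in all 8 libraries and 0 reached 1 RPKM in all 8. Otp reached 1 RPKM in 3 of the 8, Ghrh in 3, Gnrh1 in 5, Hdc in 1 and Npvf in 1, and each of these also reached it in libraries outside the 8. Of 7 pituitary genes, 4 were at 0 in all 8, Tshb reached 1 RPKM in 4 and Pou1f1 in 1. Across 48 libraries with any of the 6 precursors at 10 RPKM or more, Cga and Fshb reached 1 RPKM in 1 each and Lhb in 2. The source of the 4 peptides was not tested. Pmch shares 435 of its 749 exon bases with a gene on the other strand, Parpbp, which was not among the rows set apart in the 8 libraries. Agrp shares 114 of its 1013 exon bases with Gm5914 on the same strand, and 114 with Ctcf on the other strand. Avp (chr2:130580620-130582554, minus strand) and Oxt (chr2:130576173-130577054, plus strand) are neighbours in GRCm38.

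Outside these 8 libraries the 6 precursors differed in how widely they appeared. Of the other 160 libraries, Hcrt was at 0 in 20, Pomc in 13 and Agrp in 72, at medians of 2.48, 4.22 and 0.728 RPKM. The total numbers of members that pass between populations, ages and genotypes are therefore also given without the 8 libraries.

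In controls the 6 populations held very different sets of precursors. The summed RPKM of the 35 genes had its highest median in vagus neurons, at 6132, followed by lumbar (4386) and hypoglossal neurons (4180), then ocular (1861), facial (1796) and red nucleus neurons (859). The ranges over mice overlapped between all neighbours in this order, for example 4420 to 10178 in the vagus and 1173 to 10471 in lumbar neurons, while the highest red nucleus sum, 1711, lay below the lowest vagus sum. One gene made up much of the sum in some populations. Sst averaged 3400 RPKM in lumbar neurons, Gal averaged 2836 in the vagus and Cartpt averaged 1179 in ocular neurons, whereas in the red nucleus the highest mean was Chga, at 139.

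Each population was tested against the mean of the other 5 in controls, with limma on log2(RPKM + 1) over all genes. Differences are given on that scale with their standard error (SE), and an adjusted p (Benjamini-Hochberg) under 0.05 counts as passing. Of 210 pairs of gene and population, 92 passed, 49 higher and 43 lower, covering 32 of the 35 genes, with no pair for Avp, Cort and Pomc. Without the 8 libraries 80 passed, of which 79 were among the 92. Hypoglossal neurons had 13 genes higher and 2 lower, where 10.7% of all genes passed. Vagus neurons had 13 higher and 3 lower, against 25.9% of all genes. In lumbar neurons 9 genes were higher and 8 lower (17.4% of all genes passed), and in facial neurons 9 and 3 (9.01%). For ocular neurons the count was 3 higher and 16 lower, against 16.9% of all genes, and for the red nucleus 2 and 11, against 20.8%. The median difference over the 35 genes ran from −0.77 in ocular to 0.68 in vagus neurons, while the median over all genes stayed between −0.06 and 0.01.

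**Figure D2:**
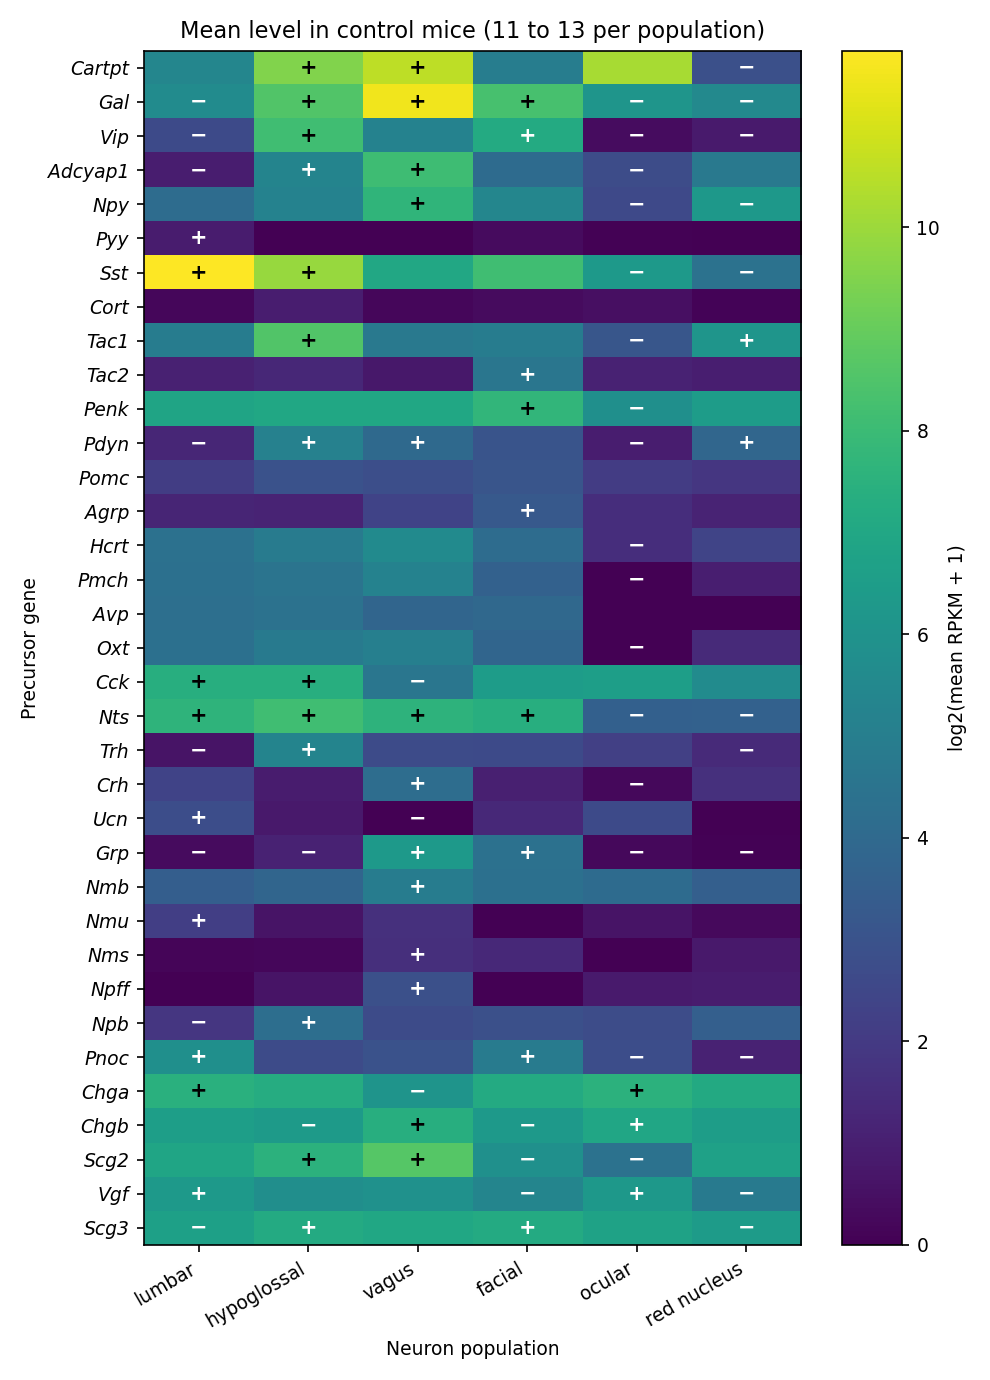
Mean level of the 35 precursor genes (rows) in control mice of 6 populations (columns), as log2(mean RPKM + 1), with 11 to 13 mice per population. Plus and minus signs mark the 92 pairs that passed as higher or lower than the mean of the other 5 populations; the brightest cells are Sst in lumbar neurons and Gal in the vagus.

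Vagus neurons, preganglionic parasympathetic cells, stood out by Gal, the precursor of galanin (chr19:3409915-3414544, minus strand, GRCm38). Gal ran from 1708 to 5761 RPKM over 11 vagus control samples, with a median of 2644. The highest value in any other population was 696.5, so the ranges did not overlap. The difference was 4.92 (SE 0.24, adjusted p = 9.1e-40). Adcyap1, the precursor of the peptide PACAP, had a median of 292 RPKM in the vagus and a highest value of 366, and was at most 84.4 elsewhere, with a difference of 4.64 (SE 0.19, adjusted p = 1.7e-48). Grp, the gastrin-releasing peptide precursor, was at 24.6 to 218.8 RPKM (median 72.4) and differed by 5.21 (SE 0.31). Grp in facial neurons reached 62.4, so these ranges overlapped. Crh, corticotropin-releasing hormone, was higher by 2.48 (SE 0.33), with a median of 15.4 RPKM. Npy, the neuropeptide Y precursor, was higher by 3.73 (SE 0.62), over a range of 15.5 to 873 RPKM. Scg2, the secretogranin II precursor, was at 315 to 539 RPKM in the vagus and was the highest there of all populations (2.43, SE 0.19). Chga went the other way, at 42.2 to 107.1 RPKM in the vagus and lower by 1.25 (SE 0.08), and Cck was lower by 2.16 (SE 0.40). Vagus libraries also held the highest summed markers of inhibitory neurons, 5 genes at a median of 44.1 RPKM against 4.57 to 26.0 elsewhere, and their part in these levels was not tested.

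Hypoglossal neurons, which move the tongue, held Vip, Tac1 and Trh. Vip, the vasoactive intestinal peptide precursor, ran from 13.7 to 658 RPKM over 12 samples (median 175.5), with a difference of 5.00 (SE 0.39). Facial neurons held it as well, at 45.03 to 331 RPKM and a difference of 4.21 (SE 0.38), while the medians of ocular and red nucleus neurons were 0.14 and 0.18. Tac1, the substance P precursor, was at 32.4 to 702 RPKM in hypoglossal neurons (median 392), a difference of 4.07 (SE 0.44). Tac1 was also higher in the red nucleus, at a median of 59.8 RPKM (1.47, SE 0.45). Trh, thyrotropin-releasing hormone, had a median of 35.7 RPKM in hypoglossal neurons and of 0 to 2.16 elsewhere, with a difference of 3.58 (SE 0.34). Pdyn, the dynorphin precursor, was at 14.1 to 61.0 RPKM there (2.76, SE 0.30), and Npb, the neuropeptide B precursor, at 2.50 to 47.4 (1.61, SE 0.40). Trh without the 8 libraries did not pass as lower in the red nucleus, nor Npb as lower in lumbar neurons.

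Lumbar neurons were led by Sst, the somatostatin precursor (chr16:23889573-23890958, minus strand, GRCm38). Sst ran from 241.5 to 8580 RPKM over 13 lumbar control samples, with a median of 2956 and a difference of 5.09 (SE 0.49, adjusted p = 1.6e-16). Hypoglossal values, 246.2 to 1768 RPKM, overlapped with the lumbar ones and passed as higher too (3.14, SE 0.51). Red nucleus neurons had a median of 1.65 RPKM. Pnoc, the nociceptin precursor, was at 17.9 to 115.6 RPKM in lumbar neurons (3.13, SE 0.31) and was also higher in facial neurons (1.73, SE 0.31). At lower levels, lumbar neurons also passed as higher for Ucn, the urocortin precursor, at a median of 7.35 RPKM (1.69, SE 0.36), and for Nmu, neuromedin U, at 3.30 (1.43, SE 0.30). Adcyap1 was lower by 4.06 (SE 0.17), with a lumbar maximum of 2.62 RPKM.

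Facial neurons were the only population where Tac2, the neurokinin B precursor, passed as higher, at a median of 8.56 RPKM and a range of 0 to 138 (2.59, SE 0.35). Penk, the enkephalin precursor, was at 140 to 284 RPKM in facial neurons and higher by 1.17 (SE 0.19), although every population held it at a mean of 56.6 RPKM or more. Nts, the neurotensin precursor, divided the populations: it passed as higher in lumbar (1.16), hypoglossal (2.85), vagus (2.13) and facial neurons (1.81) and lower in ocular (−3.00) and red nucleus neurons (−4.95), with SE between 0.34 and 0.36. Ocular neurons passed as higher for 3 granins or relatives, at smaller sizes: Chga by 0.55 (SE 0.08), Vgf by 0.58 (SE 0.13) and Chgb by 0.32 (SE 0.08). Scg2 was lower there by 2.87 (SE 0.18), at 5.25 to 39.6 RPKM. Red nucleus neurons passed as higher for Tac1 and Pdyn and lower for Sst by 5.98 (SE 0.53) and Cartpt by 5.44 (SE 0.87).

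Most of the remaining members were low. Pyy, the peptide YY precursor, was at 0 in all control samples of hypoglossal, vagus and red nucleus neurons and reached at most 4.26 RPKM, in lumbar neurons, where it passed as higher by 0.48 (SE 0.14). It reached 1 RPKM in 8 of 160 samples, and its lumbar call was lost without mouse 20, 34 or 240. Cort, the cortistatin precursor, was at 7.39 RPKM or less. Npff and Nms, the neuropeptide FF and neuromedin S precursors, passed as higher in the vagus by 1.19 (SE 0.25) and 0.69 (SE 0.25). The Nms call was lost without mouse 26, 30, 71 or 253. Npff shares 327 of its 1002 exon bases with another annotated gene on the same strand. Nmb, neuromedin B, had population means of 10.3 to 29.8 RPKM and passed as higher in the vagus by 1.15 (SE 0.33). Without the 8 libraries neither Npff nor Nmb passed there. Scg3, a granin-like sorting protein, had population means of 85.9 to 145 RPKM and passed in 4 populations at sizes of 0.23 to 0.52, with the lumbar call lost without the 8 libraries. Agrp passed as higher in facial neurons (1.09, SE 0.37, adjusted p = 0.048). That call was lost in 5 of 8 other settings, including the one without the 8 libraries. It was also lost with any of 21 of 34 mice left out. Hcrt, Pmch and Oxt passed as lower in ocular neurons, which was lost without the 8 libraries. The Oxt call was lost in 5 of 8 settings and with any of 23 mice left out. Pmch was lost in 3 settings and with any of 3 mice, and Hcrt in 2 settings and with 1 mouse.

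Cartpt, the CART peptide precursor (chr13:99898489-99901091, minus strand, GRCm38), varied widely among ocular libraries. Over 34 ocular libraries it ran from 0 to 36087 RPKM, with a median of 477. It was under 25 RPKM in 16 libraries and at 100 or more in 18, and both genotypes lay on both sides. In day 2 controls the 4 mice were at 1.65, 618, 1225 and 2018 RPKM, and in day 10 controls at 18.7, 772, 1104 and 1839. In day 10 SMA mice the 5 values were 0, 0.43, 3482, 8383 and 36087. Controls and SMA mice overlapped at each age.

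The median of Cartpt differed with the nucleus cut from the section. The 7 libraries of the oculomotor nucleus alone had a median of 1872 RPKM, the 4 of the trochlear nucleus alone 168, and the 23 that joined both 21.1. The ranges overlapped, at 4.40 to 15393 RPKM for the oculomotor nucleus alone, 0.67 to 1374 for the trochlear and 0 to 36087 for the joint libraries. Libraries of a single nucleus came only from day 5 controls and from day 10 mice of both genotypes, and all day 2 libraries were joint. These medians therefore compare nuclei at unlike ages and genotypes. The part of the mix of cells in the level of Cartpt was not tested.

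High Ucn went with high Cartpt and Cck, the cholecystokinin precursor, but not the reverse. All 6 ocular libraries with Ucn at 20 RPKM or more had Cartpt at 1374 or more and Cck at 159.2 to 1128. All 6 were from day 10, and mouse 196 gave both an oculomotor and a trochlear one. At days 2 and 5 Ucn reached at most 16.9 RPKM, in a day 5 control library with Cartpt at 4692. A day 5 control library with Cartpt at 3702 had Ucn at 0. The 16 libraries with Cartpt under 25 had Ucn at no more than 13.8 and Cck at no more than 122.9. Of the 18 libraries with Cartpt at 100 or more, 6 had Ucn at 20 or more and 5 had it at 0, and Cck ran from 35.7 to 1128 (median 147). The highest library, of SMA mouse 199, held Cartpt at 36087, Ucn at 348 and Cck at 1128 RPKM. Chat was at 16.95 to 65.1 RPKM in the 6 libraries and at 8.53 to 78.5 in the 16, so the marker of motor neurons overlapped between them. These libraries were grouped after their values were seen, and the pattern is a description.

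**Figure D3:**
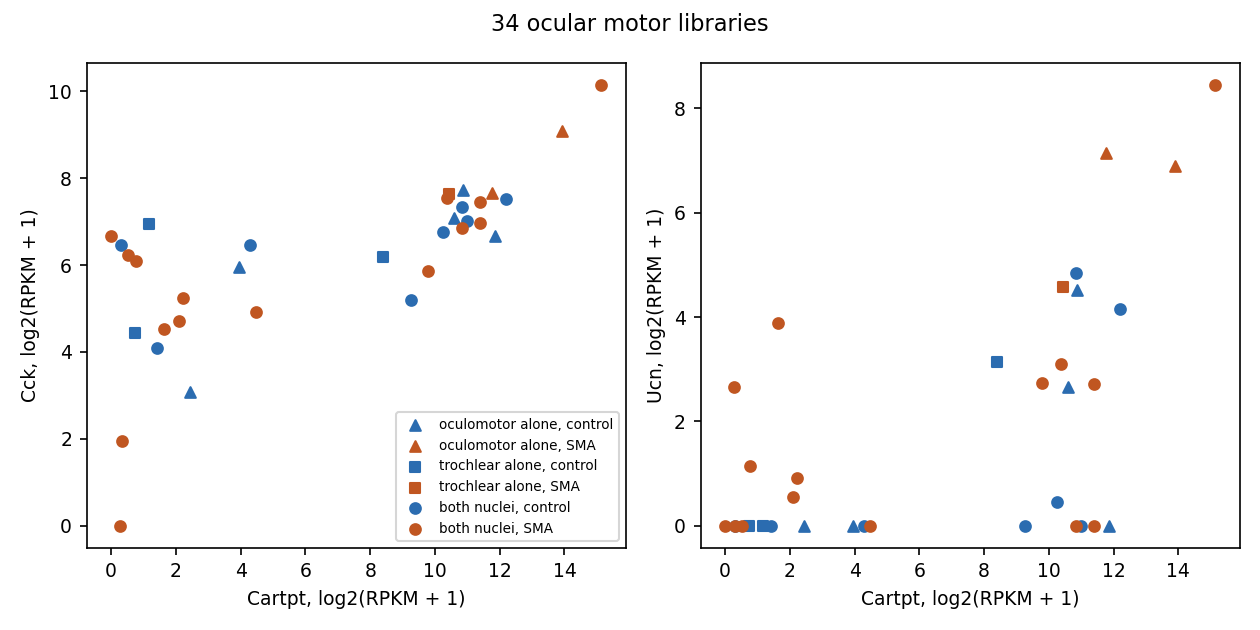
Cck (left) and Ucn (right) against Cartpt in 34 ocular libraries, all as log2(RPKM + 1); marker shape gives the nucleus and colour the genotype. Libraries fall into 16 with Cartpt under 25 RPKM and 18 at 100 or more, and the library with the highest Cartpt also has the highest Cck and Ucn.

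The start-site regions of these genes, and of Sst, carry the cyclic AMP response element TGACGTCA or the shorter TGACGCA. They are shown because the ocular libraries with the highest Ucn also had high Cartpt and Cck, and because Sst led the lumbar neurons. Each line holds the 250 bases before the start, 5′ to 3′ on the gene's strand, from RefSeq (GRCm38.p6), with the motif on either strand in capitals. All 4 genes lie on the minus strand. The RefSeq starts of Cartpt and Sst lie inside the gene spans given above, which come from another annotation. The Cartpt window therefore falls within its span, and the Sst window overlaps its span in part. Cartpt spans chr13:99900684-99900933, Ucn spans chr5:31138896-31139145, Cck spans chr9:121495695-121495944 and Sst spans chr16:23890845-23891094.
Cartpt: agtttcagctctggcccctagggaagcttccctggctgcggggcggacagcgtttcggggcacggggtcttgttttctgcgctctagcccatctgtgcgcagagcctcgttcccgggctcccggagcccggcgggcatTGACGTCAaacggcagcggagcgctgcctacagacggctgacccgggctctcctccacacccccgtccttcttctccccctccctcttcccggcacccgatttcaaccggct
Ucn: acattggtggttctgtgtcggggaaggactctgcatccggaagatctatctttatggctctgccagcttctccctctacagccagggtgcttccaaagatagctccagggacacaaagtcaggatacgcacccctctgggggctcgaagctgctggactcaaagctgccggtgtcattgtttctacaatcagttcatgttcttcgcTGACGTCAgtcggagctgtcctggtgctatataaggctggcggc
Cck: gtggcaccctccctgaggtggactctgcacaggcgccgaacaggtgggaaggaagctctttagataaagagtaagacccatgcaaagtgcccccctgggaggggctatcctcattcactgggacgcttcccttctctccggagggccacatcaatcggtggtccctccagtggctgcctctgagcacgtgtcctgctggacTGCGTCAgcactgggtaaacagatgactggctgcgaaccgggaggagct
Sst: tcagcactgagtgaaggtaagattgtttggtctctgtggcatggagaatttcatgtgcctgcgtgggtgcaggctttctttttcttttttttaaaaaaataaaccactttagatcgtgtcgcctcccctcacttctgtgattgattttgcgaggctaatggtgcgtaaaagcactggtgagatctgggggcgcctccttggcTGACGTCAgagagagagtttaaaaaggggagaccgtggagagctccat
Counted from the start, the capitals begin at −112 in Cartpt, −44 in Ucn, −49 in Cck (where the motif reads TGCGTCA, on the other strand) and −48 in Sst. Windows of 300 bases, 250 before and 50 after the start, were searched on both strands for 27 of the 35 members with an entry. TGACGTCA was in 5 of the 27 (18.5%: Cartpt, Sst, Ucn, Chgb and Scg2), against 2.03% of 27025 genes. TGACGCA was in 3 (11.1%: Cort, Tac1 and Cck), against 2.42%. A match describes the letters and does not show that a factor binds there. Penk, Agrp, Crh, Grp, Npff, Npb, Pnoc and Vgf had no entry matched.

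Between day 2 and day 10 most precursors that changed in controls fell, while 3 of the granins and relatives (Chga, Chgb and Vgf) rose and Scg2 fell. Over the 6 populations 30 pairs of gene and population passed, 23 lower and 7 higher at day 10, covering 19 genes. Lumbar neurons had 10 lower and 0 higher of 30 tested, where 12% of all genes passed. Facial neurons had 6 lower of 33 (5.36% of all genes), hypoglossal neurons 2 higher and 2 lower of 30 (5.11%), and ocular neurons 3 higher of 25 (8.02%). The red nucleus had 1 higher and 3 lower of 28 (11.1% of all genes), and the vagus 1 higher and 2 lower of 30 (1.02%). The lumbar median over the 30 genes was −0.91 against −0.10 over all genes, and the ocular median was 0.57 against 0.06. Without the 8 libraries 17 pairs passed, 16 of them among the 30. Day 10 control libraries are numbered LCM213 to LCM258 and day 2 control libraries LCM86 to LCM211, so age and library number cannot be told apart in this comparison.

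Gal was the member that fell in the most populations. In lumbar neurons the 4 day 2 controls ran from 31.6 to 161.3 RPKM (mean 99.05) and the 4 day 10 controls at 5.70, 6.90, 11.3 and 17.8, with no overlap. The change was −3.04 (SE 0.67, adjusted p = 0.0022). In facial neurons Gal was at 327, 423, 474, 586 and 697 RPKM at day 2 and at 115.9, 120.9, 138 and 155 at day 10, a change of −1.88 (SE 0.27, adjusted p = 5.0e-05). Hypoglossal neurons held it at 326, 407, 567 and 613 RPKM at day 2 and at 145 to 213.5 (median 167.8) at day 10 (−1.43, SE 0.25). The red nucleus had 34.9, 63.2, 77.7 and 136 RPKM, then 7.99, 11.4, 14.1 and 28.8 (−2.24, SE 0.48). In each of these 4 populations the ages did not overlap, and the call held without the 8 libraries, with each mouse left out and under every other setting tried. Vagus and ocular neurons did not pass: vagus controls were at 2166 to 3232 RPKM at day 2 and 2687 to 5761 at day 10, and ocular controls at 19.1 to 48.4 and 24.0 to 223.9.

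The age contrast compared controls only, but SMA mice shared its fit and its estimate of spread, so they are not a separate check. SMA mice held Gal at 307 to 755 RPKM in facial neurons at day 2 and 104 to 178.8 at day 10. In hypoglossal neurons they held it at 356 to 606 and 79.4 to 248.4. Neither pair overlapped. In lumbar neurons of SMA mice the range was 8.25 to 161.2 at day 2 and 3.30 to 39.1 at day 10, and in the red nucleus 37.8 to 82.7 and 11.9 to 42.4, both with overlap.

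**Figure D4:**
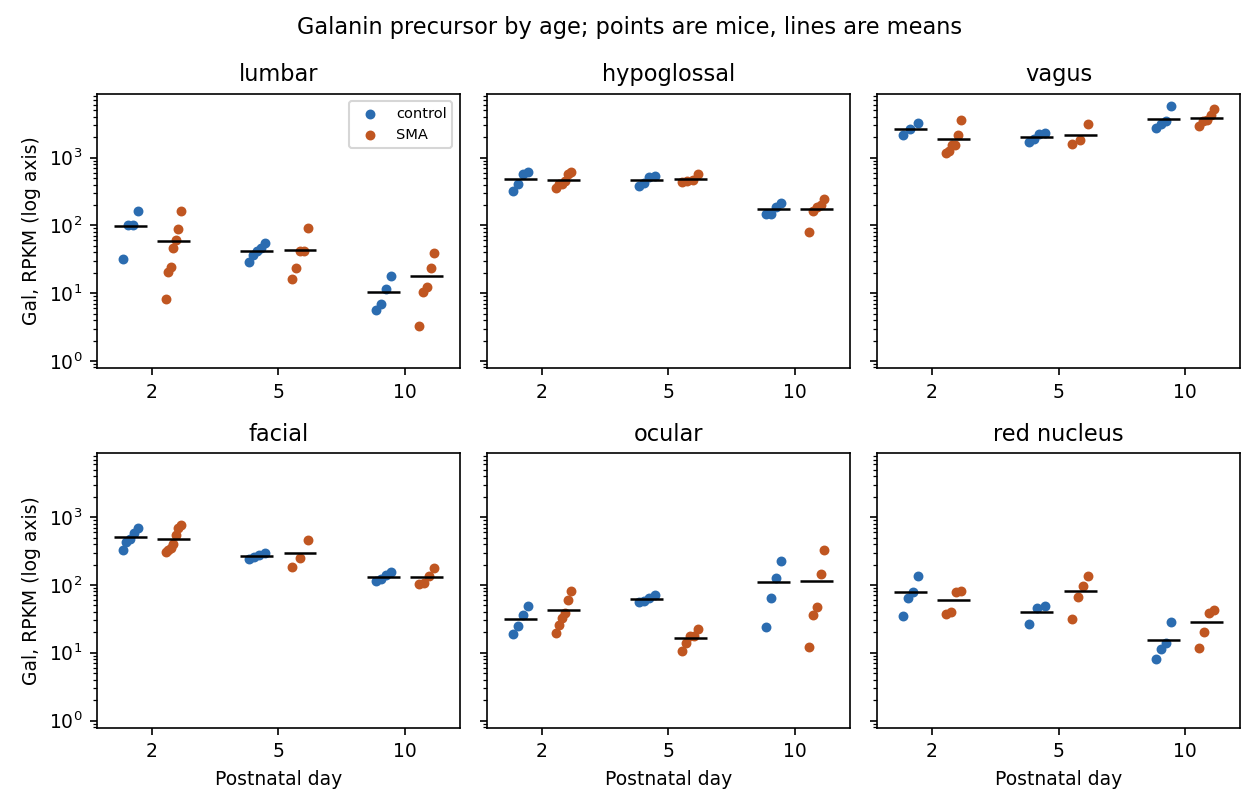
RPKM of Gal (log axis) at postnatal days 2, 5 and 10 in 6 populations; points are mice, coloured by genotype, and lines are group means. In lumbar, hypoglossal, facial and red nucleus controls the day 10 values lie below all day 2 values, and in the vagus and ocular panels they do not.

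Other peptides fell within 1 or 2 populations. Scg2 fell in lumbar neurons by 1.66 (SE 0.26), from 102.3, 130, 175.3 and 240.8 RPKM to 40.2, 40.3, 42.0 and 78.8. Pnoc fell there by 1.48 (SE 0.31), from 42.1, 58.6, 110 and 115.6 RPKM to 17.9, 27.9, 29.6 and 31.9. Ucn fell there by 2.96 (SE 0.68), from 5.07, 7.61, 10.7 and 11.8 RPKM to 0, 0, 0.39 and 0.54. These 3 calls held in every alternative run. Grp fell in facial neurons by 4.70 (SE 0.88), from 18.9, 33.01, 40.4, 62.3 and 62.4 RPKM to 0, 0.25, 0.68 and 1.87, and also held in every one. The groups did not overlap in any of the 4.

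Other falls did not pass without the 8 libraries, a fit with fewer day 2 controls. Trh fell in hypoglossal neurons by 3.25 (SE 0.66), from 34.9, 36.4, 73.8 and 97.1 RPKM to 0.50, 1.95, 9.83 and 24.4, and by 2.64 without them (adjusted p = 0.085). Tac1, Npy, Crh, Cartpt, Pomc and Adcyap1 in lumbar neurons, and Npy, Pnoc and Trh in facial neurons, likewise did not pass without them. The differences kept their direction and much of their size: in lumbar neurons Crh was at −2.98 without the 8 libraries and −2.40 with them, Pomc at −1.92 and −1.81, Cartpt at −1.75 and −1.86, Npy at −3.06 and −3.45, Adcyap1 at −0.98 and −1.18 and Tac1 at −2.39 and −3.12. In facial neurons Pnoc was at −1.86 and −1.79, Npy at −3.91 and −4.11 and Trh at −2.08 and −2.65. Over the settings tried, lumbar Cartpt was lost in 6 of 7, Tac1 in 5 of 7 and Adcyap1 and Crh in 5 of 6. Lumbar Npy was lost in 4 of 7 and Pomc in 2 of 7. Facial Npy and Trh were lost in 4 of 7 and Pnoc in 3 of 7. Lumbar Cartpt was also lost with any of 21 of 34 mice left out, and the other lumbar and facial calls with any of 3 to 7. In lumbar neurons Tac1 was at 27.7 and 34.4 RPKM in the day 2 control libraries numbered under 200, at 82.3 and 89.5 in those numbered 200 or higher, and at 1.88 to 13.6 at day 10. Vip fell in facial neurons by 1.39 (SE 0.34), and did not pass without mouse 247 or mouse 253. In the vagus, Pmch and Avp fell by 5.02 (SE 1.01) and 4.10 (SE 0.83), and this rests on the 8 libraries: both were at 0 in the 1 other day 2 control and in all 4 day 10 controls.

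Of the granins and relatives, Scg2 fell in lumbar neurons, as given above, and Chga, Chgb and Vgf rose elsewhere. Chga, chromogranin A, rose in ocular neurons by 0.73 (SE 0.16), from 108, 146, 152.6 and 182.7 RPKM to 213.7, 244, 250 and 254. It also rose in the red nucleus by 0.85 (SE 0.20), from 79.3, 104, 110 and 142 RPKM to 125.8, 207.6, 230 and 231.2, where 1 day 10 mouse overlapped with day 2. Both held with each mouse left out, and the red nucleus call was lost when red nucleus day 2 and day 10 controls were fitted alone. Vgf, the precursor of several peptides that activity is known to induce, rose in ocular (0.83, SE 0.23) and hypoglossal neurons (0.95, SE 0.28), and Chgb rose in hypoglossal neurons (0.71, SE 0.20). Chgb did not pass when its 2 groups were fitted alone (adjusted p = 0.19), nor without mouse 26, 28, 247 or 254. Its day 2 values were 42.9 and 56.7 RPKM in libraries numbered under 200 and 76.6 and 95.6 in the others, against 89.9 to 132.9 at day 10. Neither Vgf call held in all fits: in hypoglossal neurons it did not pass without the 8 libraries, nor with any of 18 of the 34 mice left out. Crh rose in the vagus by 3.24 (SE 0.68), which was lost without the 8 libraries, at 1.69 (adjusted p = 0.62), and Trh rose in ocular neurons by 2.53 (SE 0.73), which was lost in 3 other settings and with any of 5 mice left out. In the red nucleus Hcrt fell by 2.00 (SE 0.58) and Adcyap1 by 0.99 (SE 0.31). The Hcrt call was lost in 3 other settings and with any of 5 mice left out, and the Adcyap1 call in 4 settings and with any of 6 mice.

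Markers of oligodendrocytes rose over the same ages. The sum of 5 genes in lumbar controls was 8.90 to 40.1 RPKM at day 2 and 489 to 1062 at day 10, and in facial controls 10.5 to 32.6 and 208.3 to 259.1. In vagus controls it was 14.1 to 69.0 and 15.7 to 45.3. Astrocyte markers (5 genes) were lower at day 10 without overlap in facial controls (48.1 to 70.8 RPKM, then 25.2 to 35.8) and red nucleus controls (25.6 to 41.8, then 17.2 to 21.8), and overlapped between the ages in the other 4 populations. Inhibitory neuron markers overlapped between the ages in lumbar controls (17.2 to 53.8 and 6.16 to 70.2 RPKM) and in facial controls (0.43 to 36.03 and 3.52 to 40.3). The part of these cells in the age differences was not tested.

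Between SMA and control mice no precursor gene passed in any population at any age. Over 18 contrasts, 0 of 528 pairs of gene and contrast passed the adjusted limma test, where 0.129% of all pairs did. At an unadjusted p under 0.05 there were 65 pairs (12.3%), 30 of them higher in SMA, against 7.10% of all pairs. Values of the genotypes did not overlap in 17 of the 528 pairs, a share close to the 3.06% of all pairs. Groups without overlap were thus about as frequent among the members as among all genes. The median difference over the members lay between −0.20 and 0.39 in the 18 contrasts, and that over all genes between −0.01 and 0.13. The change of the genotype difference from day 2 to day 10 passed the adjusted limma test for 0 members in all 6 populations, and for 0.0415% of all pairs. Without the 8 libraries both counts of passing pairs were again 0. The count at an unadjusted p is given only with these libraries in, and they hold Hcrt, Pmch, Avp and Oxt high in day 2 controls alone.

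The lowest adjusted p belonged to Pomc in lumbar neurons at day 10. The 4 controls were at 0, 0.54, 2.02 and 4.53 RPKM and the 5 SMA mice at 3.59, 5.83, 7.68, 8.98 and 13.9, with 1 control above the lowest SMA mouse. The difference was 1.89 (SE 0.49, adjusted p = 0.060). At day 5 the 5 controls were at 0.15 to 2.61 RPKM and the 5 SMA mice at 2.69 to 7.69, without overlap (1.23, SE 0.46, adjusted p = 0.44). At day 2 the order was the other way, with controls at 4.07, 7.40, 7.61 and 9.65 and SMA mice at 0 to 4.63 (median 2.50). The change of the difference between day 2 and day 10 was 3.29 (SE 0.67, adjusted p = 0.090). Over the 34 fits with 1 mouse left out, the adjusted p of the day 10 difference ran from 0.022 to 0.25. It was under 0.05 only without mouse 196 (0.041), 211 (0.028) or 252 (0.022). The difference passed in none of the 7 other settings, where the adjusted p reached 0.16. Facial neurons at day 10 also had Pomc higher without overlap, at 11.3 to 16.4 RPKM in 4 SMA mice and 2.14 to 9.75 in 4 controls, and did not pass. In hypoglossal and red nucleus neurons at day 10, 0 SMA mice lay above the highest control. In the vagus 2 of 5 SMA mice did, and in ocular neurons 4 of 5. The highest Pomc value of all samples, 56.6 RPKM, was in hypoglossal neurons of day 10 control mouse 253.

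Vgf was higher in SMA at day 2 by estimate in all 6 populations. In lumbar neurons the 4 controls were at 56.04, 58.9, 67.0 and 75.7 RPKM and the 7 SMA mice at 60.2 to 166.4 (median 129), a difference of 0.76 (SE 0.22, adjusted p = 0.53). In hypoglossal neurons the 4 controls were at 26.6, 35.6, 37.2 and 47.4 and the 6 SMA mice at 30.8 to 116.8 (0.79, SE 0.26, adjusted p = 0.27). Facial controls were at 20.4 to 40.3 and SMA mice at 35.6 to 140 (0.83, SE 0.28), ocular controls at 33.6 to 60.3 and SMA mice at 48.3 to 98.2 (0.66, SE 0.21), and vagus controls at 44.3 to 63.2 and SMA mice at 41.0 to 118.4 (0.25, SE 0.29). In the red nucleus the 4 controls, at 23.2, 28.7, 29.8 and 32.9 RPKM, lay below the 4 SMA mice, at 33.6, 38.8, 52.97 and 61.3 (0.66, SE 0.25, adjusted p = 0.42). The other 5 populations overlapped, and the unadjusted p was under 0.05 in all but the vagus. The populations share mice and are not independent. At later ages the ocular difference had the other sign: at day 5 the 4 controls were at 77.8, 81.2, 85.3 and 91.9 RPKM and the 5 SMA mice at 52.6 to 71.3, without overlap (−0.46, SE 0.22, adjusted p = 0.69), and at day 10 the difference was −0.42 (SE 0.22). At day 5 the ocular controls other than mouse 71 had libraries of a single nucleus and all SMA libraries joined both, and the part of this was not tested. The ocular difference at day 10 minus that at day 2 was −1.08 (SE 0.30, adjusted p = 0.28).

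Library number moved with genotype at day 2, and its part in the Vgf values was not tested. Of 37 day 2 SMA libraries, 30 are numbered between 130 and 199 and 7 under 130, whereas of 24 control libraries 12 are numbered under 130, 2 between and 10 at 200 or higher. In hypoglossal neurons the 2 SMA libraries under 130 had Vgf at 30.8 and 45.1 RPKM, against 65.99 to 116.8 in the 4 others, and the 2 controls under 130 were at 26.6 and 37.2. In facial neurons the 2 SMA libraries under 130 were at 35.6 and 36.1, within the 20.4 to 40.3 of the 3 controls under 130, and the other 5 were at 42.7 to 140. The single ocular SMA library under 130, at 48.3, also lay within the controls under 130 (33.6 to 60.3). In the vagus the 2 SMA libraries under 130 were at 41.0 and 59.3 and the 4 others at 47.6 to 118.4. Lumbar neurons were the population with both genotypes between 130 and 199: the 2 controls there were at 58.9 and 75.7 and the 8 SMA libraries at 60.2 to 181.8. For the red nucleus, where all 4 SMA libraries lie between 130 and 199 and 0 controls do, genotype and library number cannot be told apart.

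**Figure D5:**
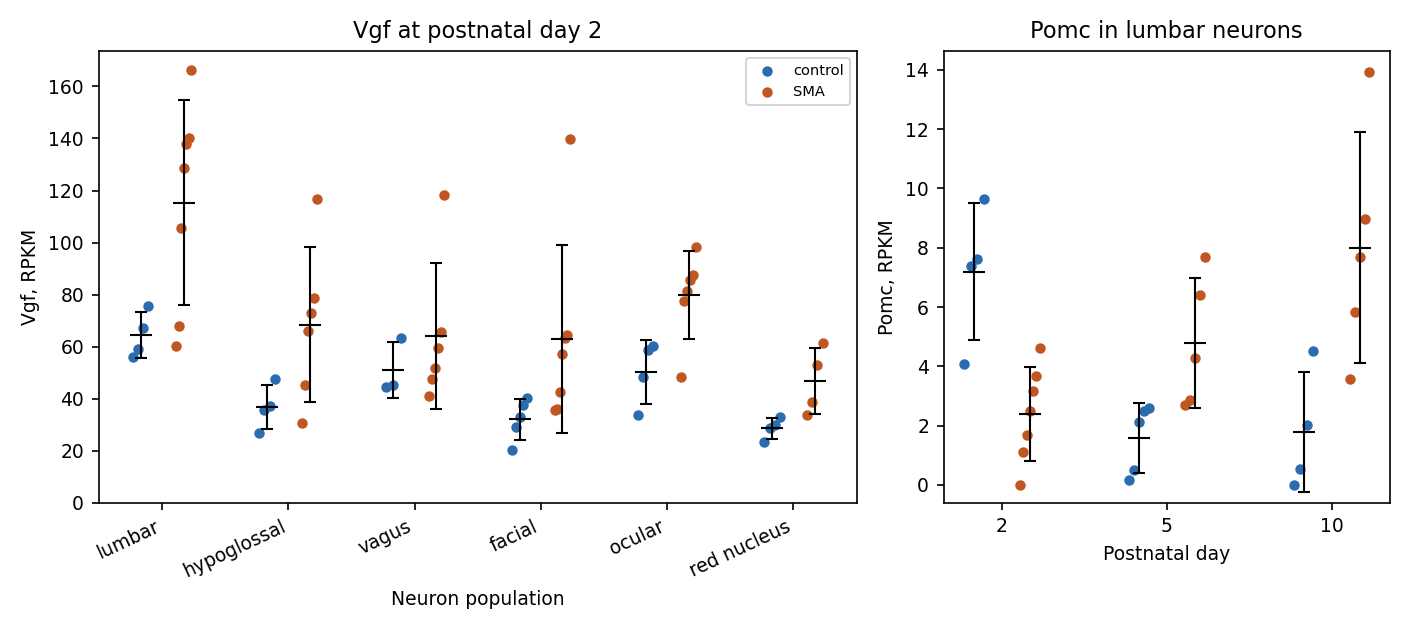
Left, RPKM of Vgf at day 2 in 6 populations; right, RPKM of Pomc in lumbar neurons by postnatal day. Points are mice, coloured by genotype, and black bars are the mean ± SD. The Vgf groups overlap in all populations but the red nucleus, and lumbar Pomc is lower in SMA at day 2 and higher at days 5 and 10 by group mean.

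The opioid precursors Penk and Pdyn had lower values in SMA mice in single groups, none of which passed. Penk in facial neurons at day 10 was at 160.7, 184.9, 188.6 and 230.5 RPKM in controls and 49.0, 55.8, 82.3 and 134 in SMA mice, without overlap (−1.34, SE 0.38, adjusted p = 0.13). In the red nucleus at day 2 Penk was at 66.8, 99.2, 99.2 and 161.3 RPKM in controls and 29.0, 37.8, 48.0 and 65.03 in SMA mice (−1.22, SE 0.28, adjusted p = 0.13). The same SMA mice held inhibitory neuron markers at 24.6 to 152.9 RPKM (sum of 5), against 11.8 to 28.0 in the controls, and their part in the Penk values was not tested. At days 5 and 10 the Penk means of the red nucleus were 79.2 and 77.5 RPKM in controls and 90.2 and 82.9 in SMA mice. Pdyn in facial neurons at day 10 was at 1.30, 7.07, 10.1 and 19.9 RPKM in controls and 0, 0, 0.43 and 1.13 in SMA mice (−2.62, SE 0.80, adjusted p = 0.19).

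Cartpt in the vagus did not overlap at days 2 and 10. At day 2 the 3 controls were at 988, 1039 and 1231 RPKM and the 6 SMA mice at 372 to 958 (median 406), a difference of −1.20 (SE 0.29, adjusted p = 0.33). At day 10 the 4 controls were at 1882, 1981, 2145 and 2593 and the 5 SMA mice at 813, 1032, 1097, 1360 and 1535 (−0.90, SE 0.28, adjusted p = 0.87). At day 5 the ranges overlapped, at 939 to 1361 and 433 to 1430. Of the 3 day 2 controls, 2 are among the 8 libraries with hypothalamic peptides.

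Cck and Gal passed when only the groups compared entered the fit. Cck in facial neurons at day 10 was at 123.1, 141, 180 and 220 RPKM in controls and 59.1, 70.4, 73.3 and 88.2 in SMA mice, a difference of −1.16 with an adjusted p of 0.040 in that limma fit. In hypoglossal neurons at day 10 Cck was at 173.1 to 220.5 RPKM in controls and 105.7 to 136 in SMA mice, also without overlap. Gal in ocular neurons at day 5 was at 56.1, 58.6, 63.3 and 69.9 RPKM in controls and 10.8, 13.9, 17.8, 17.8 and 22.5 in SMA mice, with a difference of −1.88 and an adjusted p of 0.017 in that fit and 0.50 in the shared one. At days 2 and 10 the ocular ranges of Gal overlapped between the genotypes. All day 5 ocular SMA libraries joined both nuclei. Of the day 5 controls only mouse 71, at 69.9 RPKM, had such a library, and the others had libraries of the oculomotor or trochlear nucleus alone. The part of the nucleus cut was not tested.

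The hypothalamic precursors showed how the 8 libraries enter a genotype comparison. In the vagus at day 2, Pmch was at 0, 131 and 256.5 RPKM in the 3 controls, and the difference was −5.02 (SE 0.93, adjusted p = 0.067). With mouse 26 left out, which left only the controls of the 8 libraries, Pmch, Hcrt, Oxt and Avp passed there with adjusted p from 1.0e-14 to 1.6e-05. At day 10, outside these libraries, Hcrt in the vagus was at 2.01, 3.02, 5.25 and 5.95 RPKM in controls and 7.10, 7.32, 9.48, 16.3 and 29.1 in SMA mice, and did not pass. In the red nucleus at day 10 it was at 0, 0, 0.42 and 4.37 RPKM in controls and 4.14, 4.84, 6.97 and 10.0 in SMA mice (2.11, SE 0.58, adjusted p = 0.45), with 1 control inside the SMA range.

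Genes of the wider peptide pathway were counted from lists. Of 14 genes for the cutting, sorting and release of peptides, 0 of 252 pairs passed between SMA and control, with 18 at an unadjusted p under 0.05 by limma. Of 45 peptide receptors, 0 of 513 tested pairs passed, with 40 at an unadjusted p under 0.05. Among 23 further precursors 3 pairs (1.37%) passed, with 20 at an unadjusted p under 0.05. Medians per contrast lay between −0.16 and 0.13 for the processing genes, −0.10 and 0.36 for the receptors and −0.86 and 0.66 for the further precursors. Between populations, 17 pairs of processing genes passed as higher and 21 as lower of 84, 50 and 50 pairs of receptors, and 21 and 22 pairs of further precursors of 120. As shares of the pairs tested these were 45.2%, 40.7% and 35.8%, against 16.8% over all genes. With age, 3 pairs of processing genes rose and 5 fell of 84, while 11 pairs of receptors rose and 8 fell, and 7 pairs of further precursors rose and 5 fell of 73. These were 9.52%, 11.1% and 16.4% of the pairs tested, against 7.06% over all genes.

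The 3 pairs that passed between genotypes belonged to Iapp and Calcb, both of the calcitonin gene family. Iapp, the amylin precursor, was listed at 0 in all 4 ocular controls at day 10 and was at 15.2, 29.5, 34.2, 34.7 and 66.8 RPKM in the 5 SMA mice, without overlap (adjusted p = 7.8e-13). In lumbar neurons at day 10 the 4 controls were also listed at 0 and the 5 SMA mice were at 0, 1.84, 9.80, 14.4 and 15.3 (adjusted p = 0.035). Calcb, the precursor of beta-CGRP, was at 692, 770, 971 and 1180 RPKM in ocular controls at day 10 and at 200.8, 355, 430, 434 and 513 in SMA mice, a difference of −1.26 (SE 0.25, adjusted p = 0.0098). Lumbar values of Calcb overlapped between the genotypes, at 421 to 1072 RPKM in controls and 497 to 801 in SMA mice. Calcb has a close copy, Calca, and how the authors' counting split reads between them is not given in the sources used here.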

How the data were processed

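Neurons were laser-captured, about 150 per tube, and polyA RNA was turned into libraries by Smart-seq2 with Tn5 tagmentation, per the labels' protocols. The authors deposited a table of RPKM for 168 libraries. STAR 2.4.1c and the builds mm10 and hg19 are named in the submitters' processing notes, without roles. The read counter, its annotation and its use of strand are not given in the sources used here. Positions are from GENCODE M21 (GRCm38), and exons of 6 members overlap those of another gene.

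Low RPKM values of genes with 1 transcript gave the depth of each library. Libraries of the same mouse and population were averaged, which left 160 samples. limma 3.58.1 in R 4.3.3 (lmFit, eBayes with trend, two-sided, Benjamini-Hochberg over all genes of a contrast) was run on log2(RPKM + 1), so changes of low genes are understated. A gene entered when RPKM was at least 1 in as many samples as the smallest group held, 22 members did so in every fit, and 2 to 10 members were left out of each population's fit (10 in ocular neurons, among them Vip, Crh and Grp). Scripts were tested on simulated data. P-values measure the spread between mice.

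All 35 members were named. List genes were named where they passed between genotypes, and hypothalamic or pituitary genes where they reached 1 RPKM in a library with one of the 6 hypothalamic members at 10 or more. The members and lists were chosen with earlier results of these data known. Alternatives covered the pseudocount, filter, scaling, libraries, samples in the fit, mouse as block and each mouse left out; leaving out libraries LCM202 to LCM209 was added after the data were seen. Mouse numbers in the labels mark the same animal across populations. Slc18a3, Kiss1 and Pit1 were not analysed here.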

Additional observations from a re-analysis of the deposited data

Results flagged for a closer look

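Of 79 groups of 4 or more mice whose values are given above, 7 held a mouse whose gap to its nearest neighbour took an unusually large share of the group's range. Chance alone marks about 1 in 20 groups. At day 2 the highest SMA mouse for Vgf was mouse 207 in the vagus, at 118.4 RPKM, and mouse 206 in facial neurons, at 140. Cartpt was highest in mouse 207 among day 2 ocular SMA samples, at 2669 RPKM, in mouse 199 among day 10 ocular SMA samples, at 36087, and in mouse 211 among day 2 vagus SMA samples, at 958. Among day 10 controls, mouse 253 was apart for Scg2 in lumbar neurons, at 78.8 RPKM, and mouse 254 for Hcrt in the red nucleus, at 4.37.

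Iapp differed between ages in its genotype difference: in ocular neurons the difference at day 10 minus that at day 2 was 5.11 on the log2(RPKM + 1) scale (SE 0.38, limma adjusted p = 2.2e-09).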

How the results depend on the processing

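With libraries LCM202 to LCM209 left out, an alternative chosen after seeing the data, 17 pairs passed between day 10 and day 2 in place of 30, and with all day 2 controls numbered 200 or higher left out 14 passed, of which 12 were among the 30; both leave fewer samples. Fitting only the groups compared gave 2 pairs between SMA and control in place of 0 (Cck in facial neurons at day 10 and Gal in ocular neurons at day 5). Leaving out each of the 34 mice in turn gave 0 to 4 pairs between SMA and control, 0 to 4 for the genotype difference by age, 16 to 32 for age and 85 to 98 for population. Of the 4, all came without mouse 26. The age count fell to 16 without mouse 244, and to 19 without mouse 247 or mouse 254. With the mouse as replicate block, 95 population pairs passed, including all 92 (correlation within mice 0.0366), and the block changed no call of the 92. The pseudocount of 0.1, no filter, quantile scaling and single libraries gave 87 to 93 population pairs, 86 to 91 of them among the 92. The same settings gave 22 to 28 age pairs, 18 to 27 of them among the 30, with the fewest under no filter. Fitting only the groups compared gave 20 age pairs, 17 of them among the 30. No named result changed direction in any alternative. Values under 1 RPKM rest on few reads, and the shallowest library had 0.342 M reads.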
